A study of Arabidopsis thaliana with 2 samples.

Results

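The genes described here are 5 stress-related regulators of Arabidopsis thaliana, the WRKY transcription factor genes WRKY22, WRKY47 and WRKY53, the zinc finger gene STZ and the ubiquitin ligase gene ATL8. They were found by gene symbol in the array's probe annotation, where each is named alone by 1 probe set, and they are 5 of the 13356 genes so named. Red-lit seedlings received 1 h of red light, and the dark controls stayed in darkness for the same 1 h. Both groups were whole seedlings of the Landsberg erecta ecotype, grown for 7 days in the dark at 23 °C. Their seeds had first been stratified for 2 days without light and received 2 h of white light to synchronise germination. Red light passed a filter with its maximum at 630 nm, and the fluence rate was near 10 µmol per square metre per second. Each group was 1 pool of 5 seedlings measured on 1 Affymetrix array, from 20 ng of total RNA that was amplified before labelling. There were no replicates, so no test across samples exists, the number of arrays limits the precision, and each difference is described by its size. In whole seedlings, fewer cells of a type and less RNA per cell cannot be told apart, and red light and any other difference between the 2 pools cannot be told apart either.

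WRKY proteins are plant transcription factors that carry the conserved WRKY peptide beside a zinc-binding motif and bind the W-box in the promoters of defence and senescence genes. WRKY22 is known as a factor downstream of the mitogen-activated protein (MAP) kinase cascade that flagellin perception starts, and it has also been linked to dark-induced leaf senescence. WRKY53 is a regulator of the onset of leaf senescence. STZ, also known as ZAT10, is a zinc finger repressor induced by salt, cold, drought and strong light, and ATL8 belongs to the ATL family of membrane-anchored RING-type ubiquitin ligases, several of which respond early to elicitors.

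Of the 5 genes, 3 had a signal at least 2-fold lower after red light than in the dark, namely WRKY22, ATL8 and WRKY47. WRKY53 was lower by less than 2-fold, and STZ alone was higher, also by less than 2-fold. The deposited signal is a linear intensity per probe set, and genes were kept as measured when their mean log2 signal corresponded to at least 102, which is the 40th percentile over non-control probe sets. All 5 genes passed this filter, and 7282 genes passed it in all. Among these 7282 genes, 2.44% were at least 2-fold lower and 4.82% at least 2-fold higher after red light. The 5 genes were grouped with earlier results of these data known, so their share of lower genes is a description and supports nothing.

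WRKY22 (AT4G01250) had a signal of 174.9 in red light and 704.6 in the dark. The red light array was the low one, at 24.8% of the dark signal, which is a 4.03-fold lower signal or a log2 ratio of -2.01. Only 23 of the 7282 measured genes had a lower ratio. Signals of this gene stood 8.53-fold above the highest background probe set on the red light array and 61.3-fold above it on the dark array, so its fold is not limited by background. The scatter of ratios depends on the signal, and among the 1456 genes in the same signal quintile as WRKY22 the log2 ratios had an SD of 0.62. In that quintile 3.23% of genes were at least 2-fold lower, and 6 genes had a lower ratio than WRKY22.

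WRKY47 (AT4G01720), a group IIb WRKY factor, had a signal of 127.2 in red light and 285.8 in the dark. The red light signal was again the lower one, 2.25-fold below the dark signal, with a log2 ratio of -1.17. A lower ratio was found for 120 measured genes. This gene lay in the dimmest signal quintile, where the log2 ratios had an SD of 0.70 over 1457 genes. That is wider than in the quintiles of WRKY22 and WRKY53, at 0.62 and 0.59. In the quintile of WRKY47 3.57% of genes were at least 2-fold lower. The red light signal of WRKY47 was 6.20-fold above the highest background probe set.

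WRKY53 (AT4G23810), a group III WRKY factor, had a signal of 414.8 in red light and 619 in the dark. It was 1.49-fold lower after red light, a log2 ratio of -0.58. Its signal quintile had a median of 0.02 and an SD of 0.59, so WRKY53 lay about 1 SD below the median. Of all measured genes, 670 had a lower ratio, which is 9.20% of them. At 1.5-fold, a threshold that WRKY53 just misses, 8.95% of measured genes were lower.

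STZ (AT1G27730) had a signal of 258 in red light and 213.9 in the dark. Red light was the higher array for this gene, by 1.21-fold or 0.27 on the log2 scale. This is well inside the SD of 0.62 for its signal quintile, and 28.3% of measured genes had a higher ratio.

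ATL8 (AT1G76410) had a signal of 383.9 in red light and 920.2 in the dark. The red light signal was 41.7% of the dark one, which is a 2.40-fold lower signal or a log2 ratio of -1.26. A lower ratio was found for 95 measured genes, 21 of them among the 1456 genes of its signal quintile. In that quintile 2.40% of genes were at least 2-fold lower.

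**Figure D1:**
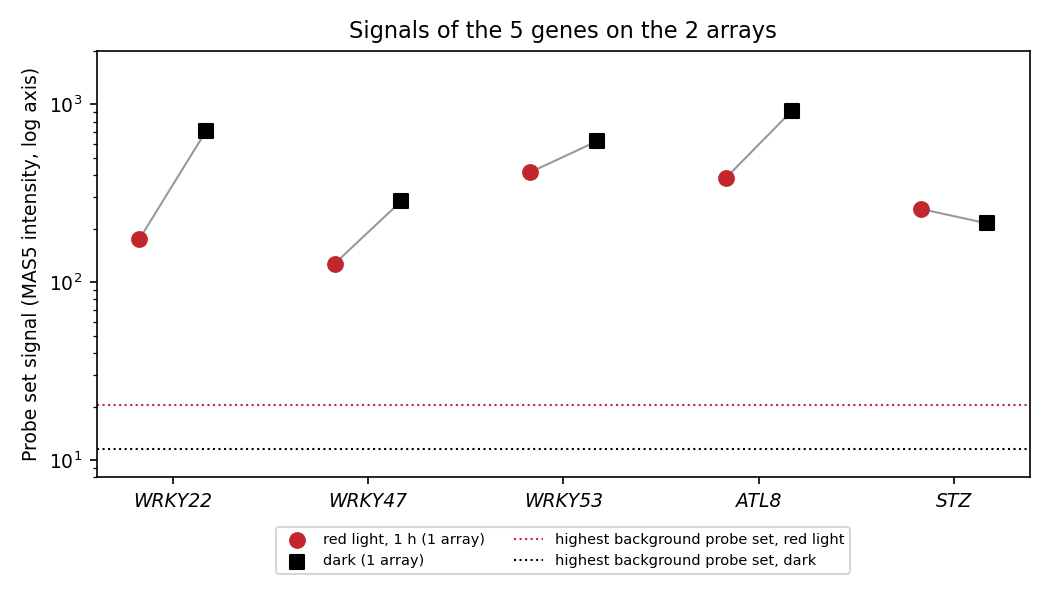
Probe set signals (MAS5 intensity, log axis) of WRKY22, WRKY47, WRKY53, ATL8 and STZ on the red light array (red circles) and the dark array (black squares), 1 array each, with the highest of 27 background probe sets on each array as dotted lines at 20.5 and 11.5. Signals of different genes come from different probes and compare only between the arrays: the red light point is the lower one for 4 genes and the higher one for STZ.

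**Figure D2:**
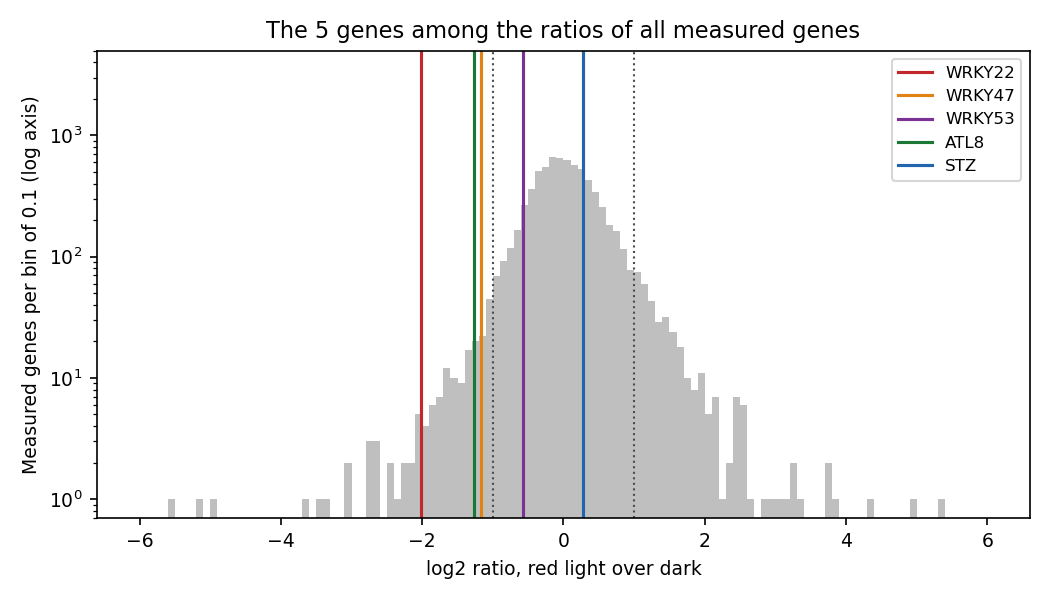
Number of measured genes (log axis) by log2 ratio of red light over dark, in bins of 0.1, for all 7282 measured genes, with the 5 genes as coloured lines and 2-fold as dotted lines. WRKY22 at -2.01 lies in the lower tail, ATL8 at -1.26 and WRKY47 at -1.17 lie past 2-fold, and WRKY53 at -0.58 and STZ at 0.27 lie between the dotted lines.

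The plot of the ratio distribution shows the order of the 5 ratios, from WRKY22 through ATL8, WRKY47 and WRKY53 to STZ. No repeat of a gene's own measurement exists here beyond genes with a pair of probe sets. In 37 such pairs of measured probe sets the median difference between log2 ratios was 0.27, with a difference in 90% of pairs of at most 0.77 and a largest one of 1.60. The ratios of ATL8 and WRKY47 were 0.09 apart, which is less than this median, so these neighbours in the order are not separated. The other neighbours were further apart, with WRKY22 0.75 below ATL8, WRKY47 0.59 below WRKY53 and WRKY53 0.85 below STZ on the log2 scale. Of these differences, 0.75 and 0.59 are still under the 0.77 that bounds 90% of same-gene pairs. Such pairs share the same 2 arrays, so they hold no spread between pools of seedlings. As a further gauge, 18 control probe sets above background, for Arabidopsis actin, GAPDH, ubiquitin and ribosomal RNA, had log2 ratios between -0.48 and 0.61. Of these controls 0 were 2-fold apart. WRKY22, ATL8, WRKY47 and WRKY53 lay below this range, but WRKY53 lay inside the range of the hybridization controls described below.

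**Figure D3:**
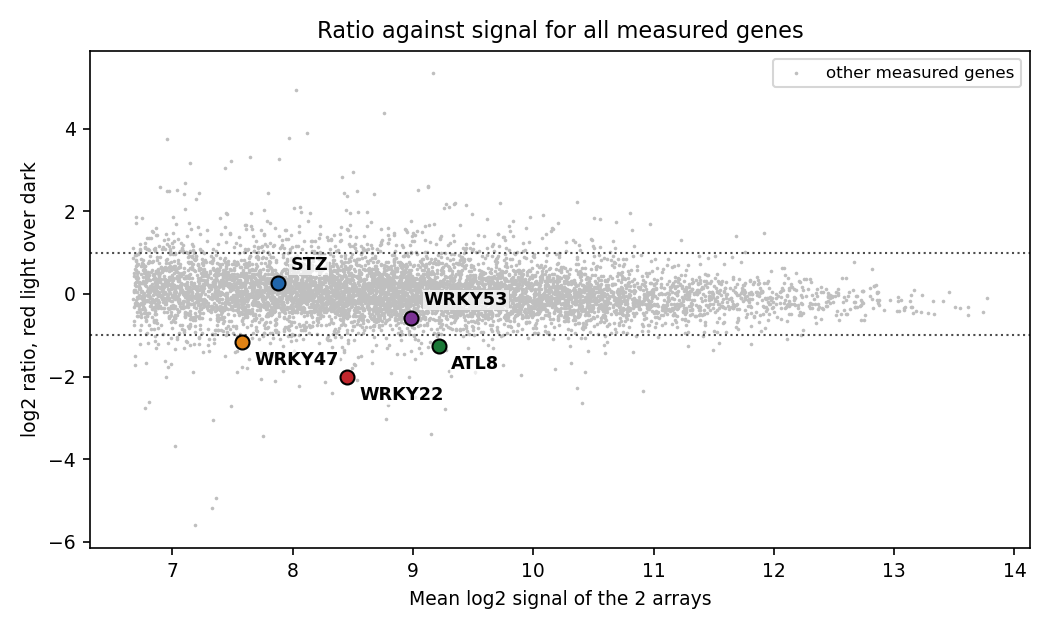
Log2 ratio of red light over dark against the mean log2 signal of the 2 arrays for all measured genes (grey points), with the 5 genes marked and 2-fold as dotted lines. WRKY22 at -2.01, ATL8 at -1.26 and WRKY47 at -1.17 lie under the lower line, while WRKY53 at -0.58 and STZ at 0.27 lie inside the main cloud.

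The 2 arrays carried a common scale, with a mean of 500.0 on each after leaving out the lowest and highest 2% of probe sets. The 18 hybridization controls, probe sets for bacterial and phage transcripts, had a median log2 ratio of -0.30 and ran from -0.66 to 0.05. Centring on them raised every ratio by 0.30 and moved the median of all genes to 0.30. ATL8 then had a log2 ratio of -0.96 and WRKY47 one of -0.87, so both missed 2-fold, while WRKY22 at -1.71 stayed past it. The direction of all 5 ratios was the same under median centring, loess, quantile normalization, an added pseudocount and this centring, as the plot of the scalings shows. Relative to the median of all genes under each of these scalings, WRKY22 lay between -2.05 and -1.88, ATL8 between -1.27 and -1.22, WRKY47 between -1.24 and -1.05, WRKY53 between -0.59 and -0.55, and STZ between 0.22 and 0.27.

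**Figure D4:**
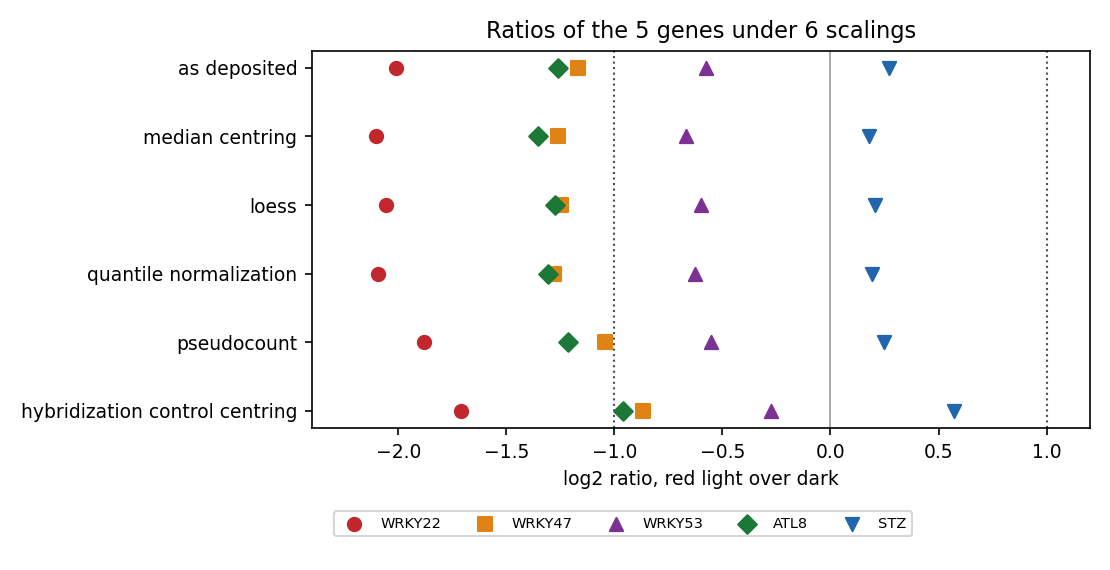
Log2 ratios of red light over dark for the 5 genes (symbols) under the deposited scale and 5 other scalings (rows), with 2-fold as dotted lines. WRKY22 stays under the lower line in every row, ATL8 and WRKY47 leave it only with hybridization control centring, at -0.96 and -0.87, and STZ is above 0 throughout.

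Relatives of these genes were followed through lists of family and pathway genes, most of whose members have no probe set that names them alone in the annotation used here and are not analysed here. Of 72 WRKY loci on the list, 7 were named and 6 were measured, WRKY22, WRKY47 and WRKY53 among them. Of these 6, WRKY22 and WRKY47 were at least 2-fold lower, beside 2.44% of all measured genes, and 0 were at least 2-fold higher, beside 4.82%. A ratio below 0 was found for 5 of the 6. The median log2 ratio of the 6 was -0.32, beside 0.00086 for all measured genes, of which 49.9% had a ratio below 0. These family values include WRKY22, WRKY47 and WRKY53, which were grouped with earlier results known, so they describe and support nothing. The 3 other measured WRKY genes had a median of -0.06, with 0 at least 2-fold lower. With hybridization control centring the median of the 6 was -0.02, and 3 of them, WRKY22, WRKY47 and WRKY53, had a ratio below 0.

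The other 3 measured WRKY genes were all close to a ratio of 1. WRKY6, a group IIb factor like WRKY47 that acts in senescence, defence and phosphate transport, had signals of 241.4 in red light and 250.9 in the dark, a log2 ratio of -0.06 that became 0.24 with hybridization control centring. WRKY20, a group I factor, had signals of 531.8 in red light and 553.4 in the dark, also at -0.06, and at 0.24 with that centring. ZAP1, the gene for WRKY1 and a group I factor too, had signals of 1429.8 in red light and 1341 in the dark, a log2 ratio of 0.09. The difference in direction between ZAP1 and the other pair is smaller than the spread of same-gene probe sets. WRKY42, a group IIb relative of WRKY6, fell under the filter, with signals of 37.3 in red light and 27.1 in the dark. Differences within the family thus ran from -2.01 for WRKY22 to 0.09 for ZAP1, and group IIb held both WRKY47 at -1.17 and WRKY6 at -0.06.

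Close relatives of STZ and ATL8 were few. On the list of STZ-type zinc finger genes, 2 of 11 loci were measured and 0 were 2-fold apart. STZ was one of them, and AT2G28200 had signals of 788 in red light and 1263 in the dark, a log2 ratio of -0.68 that runs against that of STZ. On the ATL list 2 of 5 loci were measured. ATL8 was at least 2-fold lower, and AT1G20823 had signals of 151.9 in red light and 98.3 in the dark, a log2 ratio of 0.63 in the other direction. The dark signal of AT1G20823 lies under 102, so it passed the filter only through the red light array, where it is high.

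Few genes of the pathways around these regulators could be followed. Of the 16 genes on the list of flagellin perception and its MAP kinase cascade, upstream of WRKY22, only BIK1 was measured. BIK1, a receptor-like cytoplasmic kinase of immune receptor complexes, had signals of 506.4 in red light and 611.6 in the dark, a log2 ratio of -0.27 that became 0.03 with hybridization control centring. The bacterial elongation factor receptor gene EFR fell under the filter, with signals of 15.4 in red light and 14.6 in the dark. Of 18 leaf senescence genes only SAG101 was measured. SAG101, which acts with PAD4 and EDS1 in immunity and was first described in senescing leaves, had signals of 149.8 in red light and 247 in the dark, a log2 ratio of -0.72.

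Among 26 genes of touch and wounding 2 were measured, with 0 of them 2-fold apart and a median log2 ratio of -0.22. These were the U-box ubiquitin ligase genes PUB22 and PUB23, which dampen immune responses. PUB22 had signals of 525.7 in red light and 655.3 in the dark, a log2 ratio of -0.32. PUB23 had signals of 255.2 in red light and 278.9 in the dark, a log2 ratio of -0.13 that became 0.17 with hybridization control centring. The touch-responsive calmodulin-like genes CML37 and CML38 lay under the filter, and neither was 2-fold apart. CML37 had signals of 91.4 in red light and 79.5 in the dark, and CML38 had 88.3 in red light and 68.5 in the dark.

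Of 13 drought, salt and cold genes, among which STZ is known as a regulator, 2 were measured and 0 were 2-fold apart, with a median log2 ratio of -0.50. LEA4-5, a late embryogenesis abundant protein gene, had signals of 251.6 in red light and 412.8 in the dark, a log2 ratio of -0.71. COR47, a dehydrin gene, had signals of 6078 in red light and 7409 in the dark, a log2 ratio of -0.29 that became 0.01 with hybridization control centring. Of 11 genes for salicylic acid and defence outputs 0 were measured. The defensin gene PDF1.2 had signals of 62.5 in red light and 26.3 in the dark, under the filter on both arrays.

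The list of genes raised by darkness and sugar starvation had 3 of 17 members measured. Of these 3, 2 were at least 2-fold lower and 0 at least 2-fold higher, beside 2.44% and 4.82% of all measured genes. The median log2 ratio of the 3 was -1.19, in the range of ATL8 and WRKY47, beside 0.00086 for all measured genes. This list was chosen with earlier results of these data known, so these values describe and support nothing. MCCA and IVD, both of leucine breakdown, had log2 ratios of -1.21 and -1.19, and AKINBETA1, a subunit of the energy-sensing kinase SnRK1, had one of -0.46. With hybridization control centring MCCA and IVD were under 2-fold too, at -0.91 and -0.89.

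**Figure D5:**
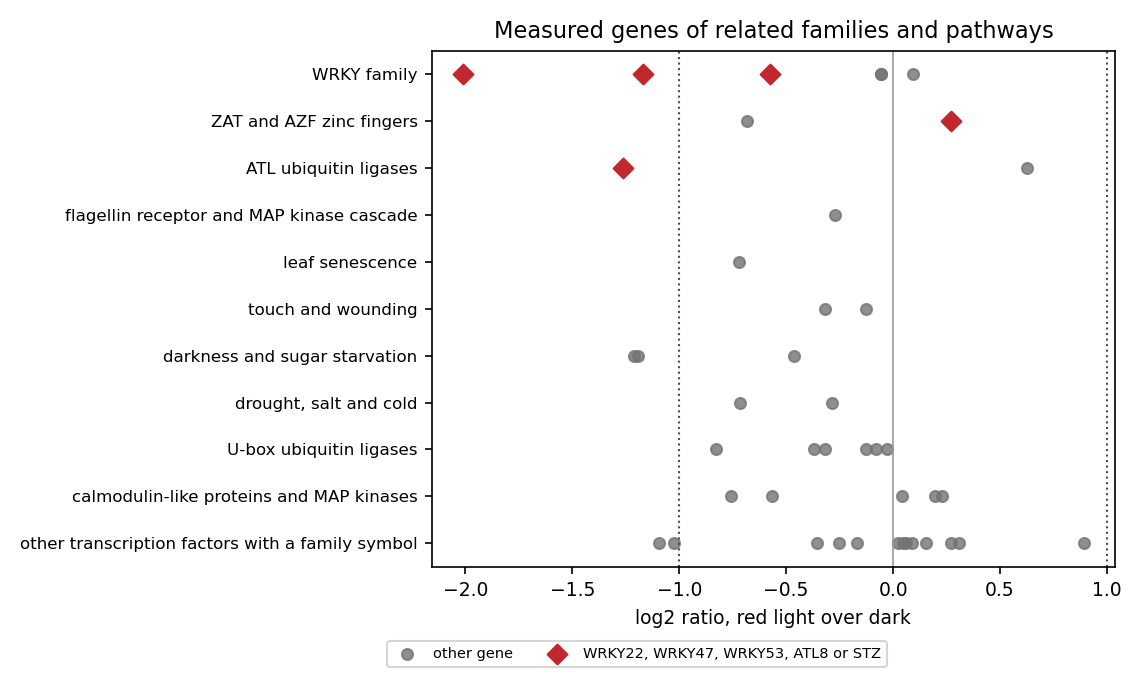
Log2 ratios of red light over dark for the measured genes of the family and pathway lists (rows; marker lists are not drawn), with WRKY22, WRKY47, WRKY53, ATL8 and STZ as red diamonds, other genes as grey circles and 2-fold as dotted lines. WRKY22 at -2.01 is the lowest point drawn, the other 3 WRKY genes sit between -0.06 and 0.09, and MCCA and IVD at -1.21 and -1.19 lie beside ATL8.

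Marker genes of the seedling's parts also differed between the pools, and their part in the ratios above was not tested. For these markers too, a change in cells and a change in RNA per cell cannot be told apart. All 4 markers of the elongating hypocotyl were measured and at least 2-fold lower after red light, beside 2.44% of all measured genes. The marker lists were chosen with earlier results of these data known, so this count describes and supports nothing. The auxin response repressor gene IAA29 was the lowest, at a log2 ratio of -2.49. The summed signal of the 4 markers was 3738 in red light and 8330 in the dark. The cell wall genes XTH18, XTH19 and EXPA8 missed 2-fold with hybridization control centring, at -0.71, -0.72 and -0.70, while IAA29 did not, at -2.19. XTH18 also missed it with loess (-0.92) and quantile normalization (-0.95), XTH19 with loess (-0.96) and EXPA8 with the pseudocount (-0.97). Of 5 shoot markers 4 were measured, with a summed signal over different probe sets of 22553 in red light and 16231 in the dark. The antenna gene LHCB4.2 was at least 2-fold higher at 1.39, PSBW and SBPASE stood at 0.84 and 0.62, and LHCB4.1 had signals of 8945 in red light and 9074 in the dark, a log2 ratio of -0.02. With hybridization control centring PSBW passed 2-fold too, at 1.14, and LHCB4.1 was at 0.28. The root marker PYK10 had a log2 ratio of -0.33, with signals of 7781 in red light and 9764 in the dark. The root hair expansin genes EXPA7 and EXPA18 had signals of 8.8 and 13.5 in red light, both under the highest background probe set, and 26.4 and 52.3 in the dark. Of 2 seed markers only the glyoxylate cycle gene ICL was measured. ICL was at least 2-fold lower, with signals of 855.6 in red light and 4352 in the dark, a log2 ratio of -2.35. With hybridization control centring ICL stayed past 2-fold, at -2.05. PAP85, under the filter, had signals of 82.8 in red light and 112 in the dark.

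The measured genes most like each of the 5 were taken as those with the smallest Euclidean distance in the pair of log2 signals, over the 2 arrays. This likeness is one of probe signals in only 2 samples, and many genes lie close to any moderate ratio. Nearest to WRKY22 were AT3G15670, at a distance of 0.13 with a log2 ratio of -2.09, and AT2G43590, at a distance of 0.16 with a log2 ratio of -1.80. For WRKY47 they were AT3G22070 and IQD22, a gene for an IQ-domain calmodulin-binding protein, both at a distance of 0.12. For ATL8 they were AT5G66650, at 0.11, and UPB1, a transcription factor gene that controls peroxidases at the root's transition to elongation, at 0.12. WRKY53 had AT2G32190 and AT5G05800 at distances of 0.0077 and 0.016, and STZ had TRM82, which encodes a subunit of a tRNA methyltransferase, and AT4G10170 at distances of 0.017 and 0.034. The nearest genes of WRKY22 were thus further away than those of WRKY53 and STZ, which lie where genes are dense.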

How the data were processed

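The authors deposited 1 linear intensity per probe set and array, and the submitters' processing notes name MAS5 (version 5). Its settings, a genome build and detection calls: not given in the sources used here. No coordinates are therefore printed. The table held 22810 probe sets, 64 of them controls. In the probe annotation 13513 named 1 gene, 503 named several and were left out, and 8730 non-control probe sets were unlisted. Symbols were matched to loci through RefSeq's TAIR10.1 gene table (13286 of 13356 genes).

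Signals were turned to log2 (a value of 0, found 4 times in all, was set to 0.1), probe sets of 1 gene were averaged, and red light minus dark gave the log2 ratio. The filter and the 2-fold threshold are given with the results. With 1 array per group no test was run. A moved ratio was one that changed by over 0.27, the median difference between same-gene probe sets. Alternatives were median centring, loess (span 0.3), quantile normalization, centring on hybridization controls, a pseudocount of 22.1, other filters, thresholds and probe set rules. The members, the 13 lists (203 entries, 40 with a probe set naming the gene alone) and the alternatives were chosen with earlier results of these data known, and 3 lists were added after the members' values were seen. The text names the 5 genes, list members past 2-fold, up to 3 further measured members of each list by absolute ratio, and the 2 nearest genes of each of the 5; unmeasured list members, and members of the added lists beyond these, were named after their values were seen. Marker lists are summarised instead. The steps were tested on simulated data. Python 3.11.15 was used with numpy 2.4.6, pandas 2.3.3, statsmodels 0.14.6 and matplotlib 3.10.9.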

Additional observations from a re-analysis of the deposited data

How the results depend on the processing

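No paired analysis was possible because only 1 array stands for each condition. With hybridization control centring the log2 ratios were -1.71 for WRKY22, -0.87 for WRKY47, -0.28 for WRKY53, -0.96 for ATL8 and 0.57 for STZ, and the WRKY family median was -0.017. By construction this centring adds 0.30 to every ratio. Under the other scalings the 5 ratios moved by less than 0.27 and kept their sign. Probe set rules and filters could not change the ratio of a gene they kept, as each of the 5 has 1 probe set. WRKY47 and STZ fell under the filter at the 60th percentile. The 2 WRKY genes past 2-fold became 1 (WRKY22) with hybridization control centring, with that filter and at 3-fold. Against 529 genes 2-fold apart in all, the count was 796 with hybridization control centring, 3102 with no filter, 261 with the filter at the 60th percentile, 1577 at 1.5-fold and 148 at 3-fold. Of called genes 66.4% were higher on the deposited scale, 54.2% with median centring and 88.6% with hybridization control centring. For 46 other genes of the lists, 0 of 398 alternative values reversed a call, but only genes past 2-fold on the deposited scale could show a reversal. Most of the 46 genes were not past it. Ratios under 2-fold did change sign, such as that of BIK1, from -0.27 to 0.03 with hybridization control centring. The 46 values that moved by over 0.27 did so with hybridization control centring. Calls at 2-fold changed more widely: 7 were lost and 2 gained with that centring, 2 were lost with loess, 2 with the pseudocount and 1 with quantile normalization. With 1 array per group the precision of every ratio is unknown, and signals near the 20.5 and 11.5 of the highest background probe sets bound no fold.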

Other observations

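Other regulators whose symbols name a family gave a wider view, from 3 lists added after the values of WRKY22, WRKY47, WRKY53, ATL8 and STZ were seen. Of 18 transcription factor genes with a bZIP, bHLH, NAC, LBD, TCP, SCL or HAT symbol 13 were measured, with a median log2 ratio of 0.05. Of these 13, 2 were at least 2-fold lower and 0 at least 2-fold higher, beside 2.44% and 4.82% of all measured genes. HAT2, a homeodomain-leucine zipper gene induced by auxin, had signals of 785.9 in red light and 1681 in the dark, a log2 ratio of -1.10. The bZIP gene bZIP52 had signals of 81.1 in red light and 165 in the dark, a log2 ratio of -1.02. Its red light signal lies under 102, so it passed the filter only through the dark array, and with the pseudocount it missed 2-fold at -0.86. With hybridization control centring neither HAT2 nor bZIP52 was 2-fold apart, at -0.80 and -0.72. The bHLH gene bHLH34 came closest to 2-fold higher, at 0.89, and with that centring it was past it at 1.19.

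All 6 measured U-box ubiquitin ligase genes of 9 had a ratio below 0, beside 49.9% of all measured genes, though 0 of the 6 were 2-fold apart. PUB43 and PUB49 had the smallest differences, at log2 ratios of -0.03 and -0.08. The median log2 ratio of the 6 was -0.22, and PUB22 and PUB23 are among them. PUB25, which is known from cold responses and immunity, was lowest at -0.83, with signals of 131 in red light and 232.4 in the dark. PUB19, a ligase of abscisic acid and drought responses, followed at -0.37. With hybridization control centring PUB23 (0.17), PUB49 (0.22) and PUB43 (0.27) had ratios above 0.

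Calmodulin-like and MAP kinase genes had 5 of 9 members measured, with 0 of them 2-fold apart and a median log2 ratio of 0.04. CML43 had signals of 82.3 in red light and 139.2 in the dark, a log2 ratio of -0.76. Its red light signal lies under 102, so CML43 passed the filter only through the dark array. CML30 had a log2 ratio of -0.56, while ATMPK8 stood at 0.19 and CML23 at 0.23.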
